A study of Mus musculus with 75 samples.

Results

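The genes examined here are 6 genes whose protein products belong to the myelin sheath of other nerves, measured in enteric glia, the support cells of the nervous system in the gut wall. The members were Mbp, Pmp22, Cnp, Mal, Mag and Gpm6b, taken by symbol, and they are 6 of the 21051 symbols in the deposited count table of the untreated and 2 h libraries and 6 of the 21076 in the table of the 24 h libraries. RNA of enteric glia from adult mice was read by Smart-seq2, a method for very small amounts of RNA, in 75 bulk libraries that form 16 groups in 3 experiments.

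Every animal, controls included, carried the same glial eGFP reporter transgene. All untreated and 2 h libraries are labelled WT (wild type). The untreated experiment compared the myenteric plexus, the nerve layer between the muscle coats, with the submucosal plexus beneath the lining: 5 libraries of myenteric colon, 6 of myenteric small intestine, 5 of submucosal colon and 6 of submucosal small intestine. In the 2 h experiment, reporter mice received LPS (lipopolysaccharide of E. coli O111:B4, a bacterial cell wall component, 2 mg/kg) or PBS (buffer) into the peritoneum, with 4 libraries in each of PBS colon, PBS small intestine, LPS colon and LPS small intestine. In the 24 h experiment, reporter mice labelled Gpr37WT (WT) or Gpr37-/- (KO, lacking the receptor gene Gpr37) were taken 24 h after the same injections. That experiment held 4 WT PBS colon, 5 WT LPS colon, 5 KO PBS colon, 4 KO LPS colon, 6 WT PBS small intestine, 4 WT LPS small intestine, 4 KO PBS small intestine and 5 KO LPS small intestine libraries. All 2 h and 24 h libraries were of the myenteric plexus, and both sexes were used. How the cells were collected is not given in the sources used here.

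Myelin is a stack of tightly packed membrane that Schwann cells wrap around peripheral axons and oligodendrocytes around central axons. Mbp (myelin basic protein) holds the inner faces of the stack together, Pmp22 is a membrane protein of compact peripheral myelin, Cnp keeps channels of cytoplasm open within the sheath, Mal is a membrane protein that sorts lipids and proteins to it, Mag is an adhesion protein of the layer next to the axon, and Gpm6b is a membrane glycoprotein of glia and neurons. Enteric glia arise from the neural crest, as Schwann cells do, and do not make myelin sheaths.

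In GRCm38 (GENCODE vM21) the members other than Mbp lie at chr11:63128982-63159547 (Pmp22, plus strand), chr11:100574904-100591729 (Cnp, plus), chr2:127633226-127656695 (Mal, minus), chr7:30899176-30914873 (Mag, minus) and chrX:166238911-166388988 (Gpm6b, plus). Counts were per gene, so the Golli transcripts of the Mbp locus could not be told apart from those of myelin basic protein.

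The sequences before the starts of 4 members are given because those members lay lower together in the submucosal plexus of the small intestine, as described further on, and because Sox10, the transcription factor of the enteric glial lineage, belongs to a family that binds short ACAAAG or ACAATG motifs. The sequences are from RefSeq (GRCm38.p6), run 5′ to 3′ toward the gene on its own strand, and end at the base before the first annotated transcript start. Capitals mark an ACAAAG motif.
Pmp22: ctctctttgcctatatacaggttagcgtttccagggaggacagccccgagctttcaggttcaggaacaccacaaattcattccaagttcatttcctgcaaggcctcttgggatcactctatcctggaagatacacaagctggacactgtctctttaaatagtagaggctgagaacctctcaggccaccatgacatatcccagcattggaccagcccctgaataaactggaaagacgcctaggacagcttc
Cnp: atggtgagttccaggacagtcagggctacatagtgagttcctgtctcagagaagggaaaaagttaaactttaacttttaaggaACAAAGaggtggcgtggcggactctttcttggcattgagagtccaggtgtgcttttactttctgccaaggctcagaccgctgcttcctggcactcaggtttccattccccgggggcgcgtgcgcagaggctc
Mal: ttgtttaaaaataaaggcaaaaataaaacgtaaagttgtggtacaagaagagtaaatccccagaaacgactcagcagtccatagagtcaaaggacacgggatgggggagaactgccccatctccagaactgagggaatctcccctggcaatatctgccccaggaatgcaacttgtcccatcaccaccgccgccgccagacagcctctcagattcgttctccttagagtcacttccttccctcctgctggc
Gpm6b: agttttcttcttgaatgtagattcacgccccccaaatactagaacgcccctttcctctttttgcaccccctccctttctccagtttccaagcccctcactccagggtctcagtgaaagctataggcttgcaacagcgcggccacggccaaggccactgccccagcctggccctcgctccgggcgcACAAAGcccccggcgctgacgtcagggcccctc
They lie at chr11:63128732-63128981 (Pmp22, plus strand), chr11:100574689-100574903 (Cnp, plus strand), chr2:127656696-127656945 (Mal, minus strand) and chrX:166238693-166238910 (Gpm6b, plus strand). Searched on both strands, ACAAAG was found once before Cnp and once before Gpm6b, and neither ACAAAG nor ACAATG was found before Pmp22 or Mal. Mag, not printed, held ACAAAG on the other strand at 1 site that 2 of its 3 windows share. Of 32851 promoter windows of 250 bases in the same table, 16.5% held ACAAAG, 10.7% held ACAATG and 25.2% held either. A match of this kind is a description of the letters, since no binding was measured. The table held a window for 5 of the 6 members, all but Mbp.

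The libraries held 2547296 to 9002546 counts in the untreated experiment, 1990744 to 7883251 at 2 h and 2882539 to 33283346 at 24 h, and CPM, the unit of all levels here, is the count per 1000000 of the TMM-scaled library size. Markers of enteric glia were present in every group: the summed CPM of 7 glial markers ran from 6103 to 14068 in the untreated myenteric libraries and from 526 to 5241 in the submucosal ones, and from 1032 to 17018 at 24 h. At 24 h Gpr37 lay between 0 and 0.802 CPM in the 18 KO libraries and between 0 and 17.4 CPM (median 6.54) in 17 of the 19 libraries labelled WT. The other 2, both of mouse 3 and both LPS, held 0 and 0.472 CPM, so Mbp and Pmp22 after LPS in WT and the comparison of the genotypes are also given without that mouse. Among the 17, the WT LPS colon libraries of mice 5 and 8 had no Gpr37 count either. The labels name no animal for the untreated and 2 h libraries, so their p-values measure the spread between these libraries, which may in part be technical. In bulk libraries, fewer cells of a type and less RNA of a gene per cell cannot be told apart.

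**Figure D1:**
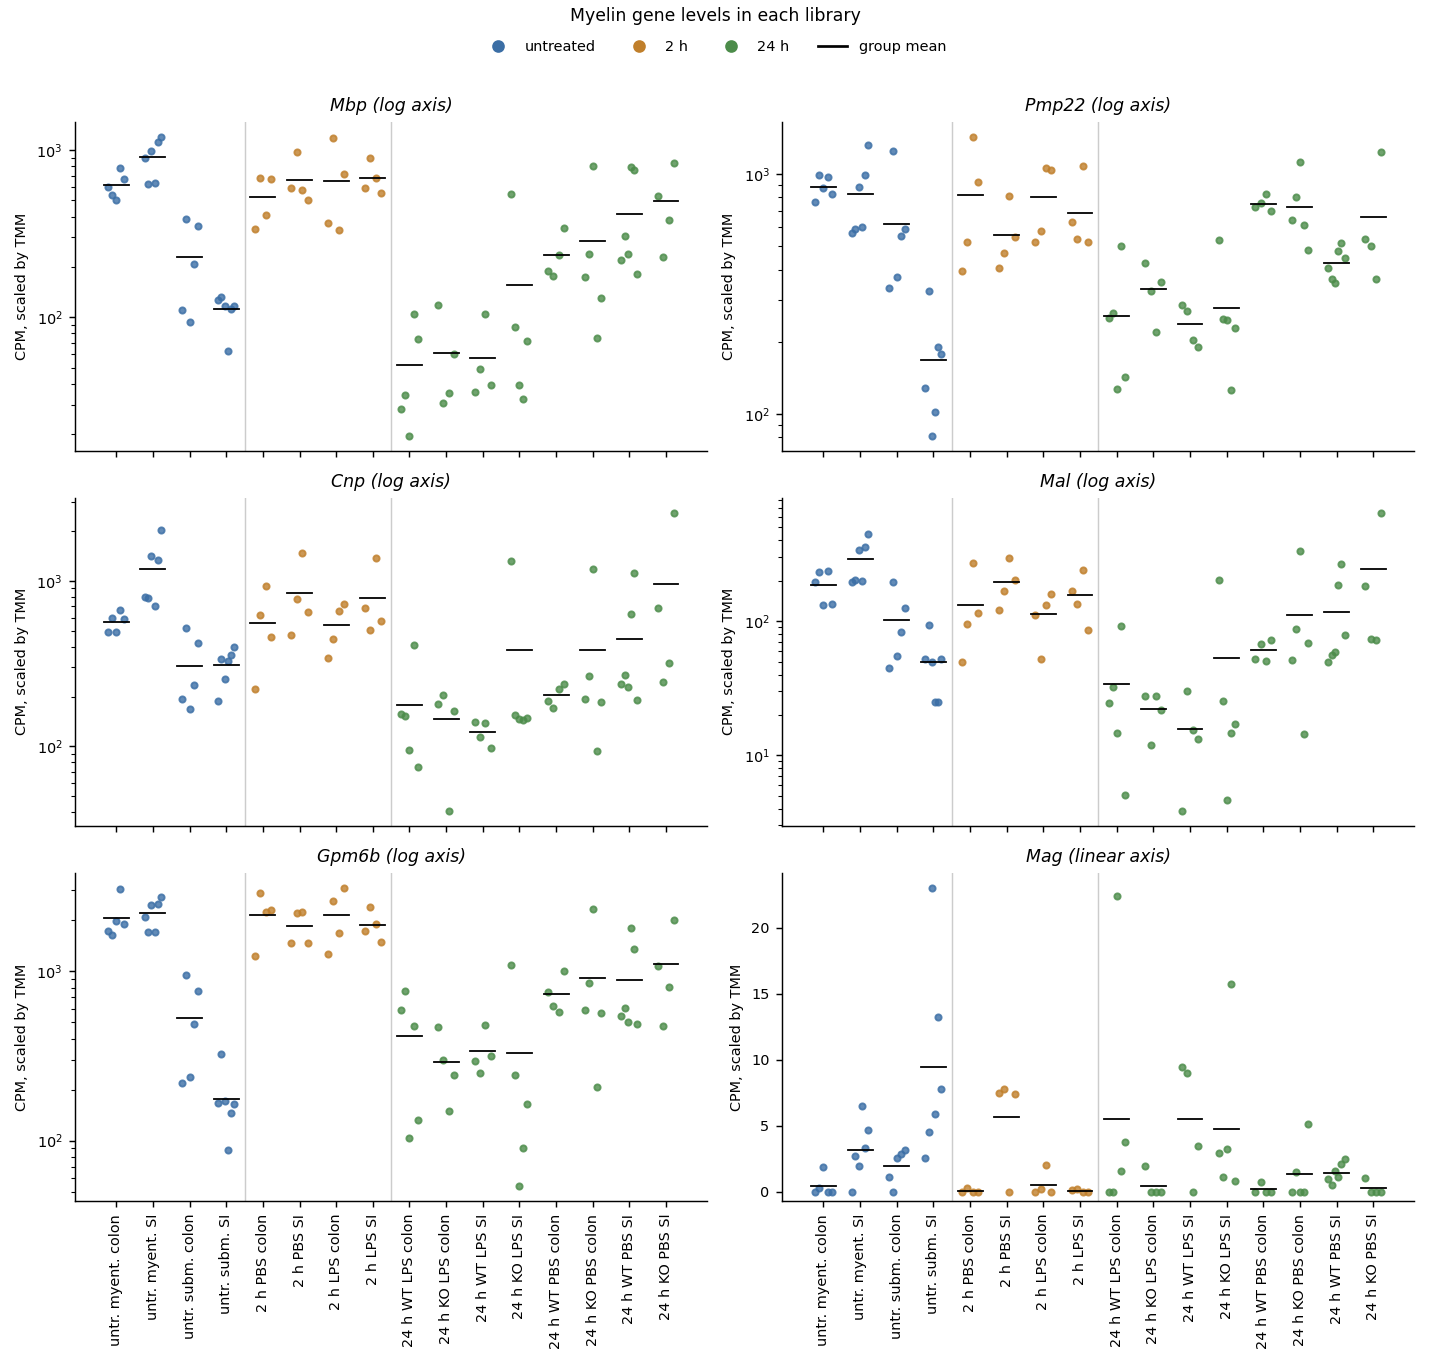
CPM of the 6 members in each of the 75 libraries (points, coloured by experiment) over the 16 groups, on a log axis except for Mag, which is on a linear axis. Black lines are group means, and the untreated submucosal groups lie below the untreated myenteric ones for Mbp and Gpm6b, while Mag stays at or below 23.0 CPM throughout.

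The 5 members other than Mag were counted in all 75 libraries, with at least 13 counts (Mal) and up to 26102 (Gpm6b). Levels are compared between genes per kilobase of exon, as CPM per kb. In the untreated myenteric small intestine the order was Gpm6b (392 ± 77.4 CPM per kb, SD, n = 6), Pmp22 (350.04 ± 127), Cnp (323 ± 141), Mbp (107 ± 28.3), Mal (104 ± 38.0) and Mag (0.786 ± 0.55). In the untreated myenteric colon Pmp22 (376 ± 40.5, n = 5) and Gpm6b (368 ± 101) led, followed by Cnp (155 ± 20.2), Mbp (73.1 ± 13.0) and Mal (67.1 ± 18.2). In the submucosal small intestine Cnp (85.1 ± 20.9, n = 6) and Pmp22 (71.1 ± 37.3) stood first, and Gpm6b (31.6 ± 14.1) came after them. The spread of Mal was widest in the KO LPS small intestine, where its highest library was 44.0 times the lowest, against 1.42 times in WT PBS colon and at most 5.46 times in any group of the other 2 experiments. When groups were ordered by their mean within an experiment, 5 of 18 neighbouring pairs of groups did not overlap in the untreated libraries, 0 of 18 at 2 h and 0 of 42 at 24 h, counting the 6 members together. The share of such pairs over all genes is not given here, so these counts do not set the members apart from other genes.

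Whether the plexuses differ in these genes was answered by the untreated libraries. Mbp and Gpm6b were lower in the submucosal than in the myenteric plexus of both regions, and in the small intestine Pmp22, Cnp and Mal were lower as well. The libraries of the plexuses did not overlap for any of these 7 differences. How often that held over all genes is not given here. Of all genes tested, 21.8% passed the threshold (adjusted p under 0.05) in the colon comparison and 43.5% in that of the small intestine, and 11.1% and 21.2% did so in the lower direction.

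Mbp, the protein that compacts the sheath, was at 601, 538, 504, 779.6 and 672 CPM in the myenteric colon and at 111, 389, 93.6, 208 and 351 CPM in the submucosal colon. Every submucosal library was below every myenteric one, and the log2 fold change was -1.43 ± 0.33 (SE; adjusted p 0.0045, edgeR's quasi-likelihood test, adjusted after Benjamini-Hochberg over all genes, as for every adjusted p given here). In the small intestine Mbp ran from 628 to 1194 CPM (median 943, n = 6) in the myenteric and from 62.6 to 133 CPM (median 117, n = 6) in the submucosal plexus. The groups were far apart, with a log2 fold change of -3.03 ± 0.32 (adjusted p 6.44e-07).

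Gpm6b, the membrane glycoprotein, showed the same order. Its CPM in the myenteric colon were 1738, 1631, 1981, 3046 and 1913, and in the submucosal colon 218, 948, 236, 491 and 765. No library overlapped, and the log2 fold change was -1.96 ± 0.37 (adjusted p 0.00125). In the small intestine it ran from 1702 to 2745 CPM (median 2268) against 87.4 to 324 CPM (median 166). That is a log2 fold change of -3.63 ± 0.37 (adjusted p 4.05e-07).

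Pmp22, Cnp and Mal passed edgeR's test in the small intestine and not in the colon, and the difference between the regions did not pass its own test. Pmp22, of compact peripheral myelin, ran from 566 to 1317 CPM (median 743) in the myenteric and from 81.3 to 325 CPM (median 153) in the submucosal small intestine (log2 fold change -2.30 ± 0.35, adjusted p 2.57e-05). In the colon it was at 765, 992, 877, 969 and 827 CPM in the myenteric and at 334, 1248, 372, 549.8 and 591 CPM in the submucosal plexus. The second submucosal library lay above all myenteric ones, and the log2 fold change was -0.52 ± 0.36 (adjusted p 0.328). Cnp, the protein of the cytoplasmic channels, ran from 705 to 2027 CPM (median 1064) against 188 to 398 CPM (median 332) in the small intestine (log2 fold change -1.93 ± 0.30, adjusted p 3.71e-05). In the colon its value was -0.89 ± 0.32 (adjusted p 0.0513), and it passed there with the replicate block (0.0236) and by DESeq2 (0.0379). Mal, the sorting protein, ran from 196 to 446 CPM (median 270.2) against 25.0 to 94.0 CPM (median 51.1) in the small intestine (-2.54 ± 0.38, adjusted p 2.06e-05). In the colon its value was -0.88 ± 0.39 (adjusted p 0.113). Without submucosal colon replicate 2, the library with the high Pmp22, Cnp and Mal also passed in the colon (-1.16, adjusted p 0.0132, and -1.26, adjusted p 0.0229), and without replicate 6 Cnp did. The test of the plexus difference between the regions gave 1.61 for Mbp (adjusted p 0.0779), 1.78 for Pmp22 (0.0817), 1.68 for Gpm6b (0.0952), 1.66 for Mal (0.126) and 1.04 for Cnp (0.249) on the log2 scale. None of the 6 passed by edgeR with all libraries and no replicate block, where 2071 genes had an unadjusted p under 0.05 and 1.19% of all genes passed after adjustment, and 4 members passed by DESeq2. With the block Mbp passed (1.60, adjusted p 0.0479). With single libraries left out, Mbp passed without submucosal colon replicate 1 or 4, Gpm6b without submucosal colon replicate 1 or submucosal small intestine replicate 2, and Pmp22 without the latter.

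**Figure D2:**
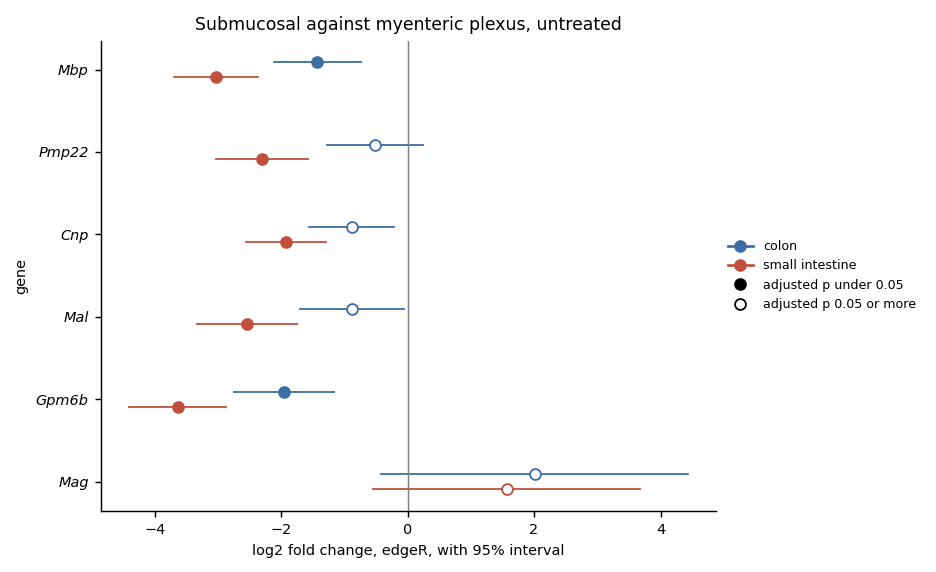
Log2 fold change of each member, submucosal over myenteric plexus, in the untreated colon and small intestine, with 95% intervals and filled points where the adjusted p was under 0.05. Mbp and Gpm6b are filled in both regions, and Pmp22, Cnp and Mal in the small intestine only.

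The plexus comparison also differed in the other cells of the libraries. All 6 leukocyte markers were higher in the submucosal plexus of both regions, with summed levels of 4673 to 22982 CPM against 199 to 2692 CPM in the small intestine and of 386 to 10883 CPM against 242 to 1470 CPM in the colon. Epithelial markers were higher for 6 of 6 in the small intestine (1266 to 5648 against 27.4 to 258 CPM) and for 2 of 6 in the colon (1577 to 7201 against 7.03 to 1899 CPM). All 5 smooth muscle markers were lower in both regions (58.2 to 908 against 1121 to 7738 CPM in the small intestine, 714 to 2736 against 6500 to 20510 CPM in the colon). Neuronal markers were lower for 6 of 6 and 4 of 6, and glial markers for 7 of 7 in the small intestine (526 to 1985 against 9102 to 14068 CPM) and 4 of 7 in the colon (1062 to 5241 against 6103 to 13368 CPM). Their part in the members' differences was not tested. The share of mitochondrial counts differed as well, at 11.6 to 18.8% in the myenteric and 2.84 to 9.43% in the submucosal small intestine. In the colon it was 5.35 to 16.5% and 4.02 to 7.18%. What this share had to do with the members was not tested either. Mal is also known from T cells and epithelium, so its counts need not come from glia alone.

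The members were therefore also read against a glial reference, the mean log2 CPM of the glial genes Sox10, S100b, Erbb3 and Cdh19 in the same library, as values without a test. The reference itself differed between submucosal and myenteric plexus by -2.08 in the colon and by -2.93 in the small intestine on the log2 scale, and its libraries did not overlap between the plexuses. Against it, Mbp differed by 0.44 in the colon and by -0.09 in the small intestine, and Gpm6b by -0.08 and -0.79, with overlapping libraries throughout. Pmp22 stood 1.40 higher per reference in the submucosal colon, Cnp 1.06 and Mal 1.04, all 3 without overlap, but with a reference of Sox10, Erbb3 and Cdh19 the values were 1.26, 0.92 and 0.89 and all overlapped. In the small intestine the same differences were 0.55 for Pmp22, 1.07 for Cnp and 0.33 for Mal, and the libraries overlapped. Mag, on few counts, stood 3.68 higher in the submucosal colon with overlap and 4.50 higher in the submucosal small intestine without overlap.

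**Figure D3:**
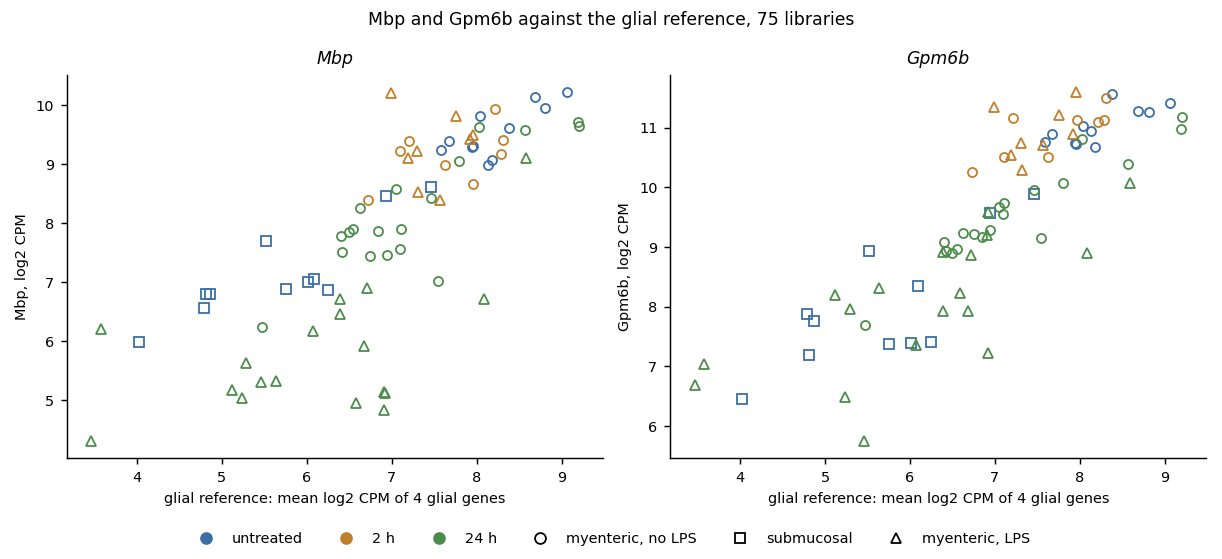
Log2 CPM of Mbp and Gpm6b against the glial reference (mean log2 CPM of Sox10, S100b, Erbb3 and Cdh19) in the 75 libraries. The reference was 4.02 to 6.25 in the submucosal and 7.94 to 9.06 in the myenteric small intestine of the untreated mice.

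The regions of the gut were compared within each plexus. In the submucosal plexus Pmp22 was higher in the colon than in the small intestine without overlap (log2 fold change 1.89 ± 0.35, adjusted p 0.00265). Gpm6b was also higher there (1.59 ± 0.35, adjusted p 0.00903), although the highest library of the small intestine, at 324 CPM, exceeded the colon libraries at 218 and 236 CPM. Mbp stood at 1.05 (adjusted p 0.0515), Mal at 1.03 (0.124) and Cnp at -0.02 (0.987). Mbp passed with the replicate block (0.0489), by DESeq2 (0.0174) and without submucosal colon replicate 1 or 4, and Mal without submucosal small intestine replicate 2. Of all genes, 5.18% passed in that comparison and 3.82% in the higher direction. Markers higher in the submucosal colon were 2 of 4 of endothelium, 1 of 5 of fibroblasts, 1 of 7 of glia, 2 of 6 of Schwann cells and 1 of 4 of neutrophils, and 1 of 6 neuronal markers was lower, and their part was not tested. Per glial reference Pmp22 differed by 1.44 and Gpm6b by 1.03, both with overlap. In the myenteric plexus none of the 6 passed by edgeR with all libraries and no replicate block, where 2339 genes had an unadjusted p under 0.05 and 3.19% passed after adjustment. Cnp came nearest: its colon libraries, at 489.6, 596, 493, 662 and 587 CPM, were all below those of the small intestine, at 705 to 2027 CPM (log2 fold change -1.06 ± 0.31, adjusted p 0.0641). With the replicate block it passed (-1.03, adjusted p 0.0491), and DESeq2 called 1 member. Cnp passed without myenteric small intestine replicate 1 or 2. Per glial reference, Pmp22 was 0.60 higher in the myenteric colon without overlap, and the other members overlapped. The exons of Cnp share 154 bases (4.23% of them) with Dnajc7 on the opposite strand, and whether the counting used strand is not given in the sources used here. Markers of neurons were lower for 5 of 6 in the myenteric colon and those of fibroblasts higher for 3 of 5, and their part was not tested.

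Whether LPS moved these genes within 2 h was tested in the myenteric plexus of each region. None of the 5 tested members passed by edgeR or DESeq2 in the colon or small intestine, and Mag was below the filter on low counts. Of all genes, 0.778% passed in the colon by edgeR and 1.1% in the small intestine (987 and 681 genes at an unadjusted p under 0.05), and DESeq2 called 279 and 260 genes. Mbp was at 337, 678, 406 and 670.3 CPM in PBS colon and at 366, 1179, 334 and 723 CPM in LPS colon. The groups overlapped, and the log2 fold change of 0.32 had a 95% interval from -0.49 to 1.12. Gpm6b, at 1228, 2889, 2229.7 and 2302 CPM in PBS colon and 1259.7, 2599, 1672 and 3106 CPM in LPS colon, gave 0.00 with an interval from -0.66 to 0.66. For Pmp22, Cnp and Mal the values were -0.03, -0.04 and -0.22 in the colon and 0.31, -0.11 and -0.33 in the small intestine. The 95% intervals of the 5 members included 0 in both regions. No member passed between colon and small intestine after PBS (0.221% of all genes) or LPS (0.061%) at 2 h, or in the difference of the LPS response between the regions (0% of all genes), by edgeR, with 1394, 1376 and 452 genes at an unadjusted p under 0.05, or by DESeq2.

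At 24 h after LPS the 5 members other than Mag had negative values in all 4 comparisons, and 2 values passed the test: Pmp22 in the WT colon and Mbp in the WT small intestine. The share of all genes that passed was 7.96% in the WT colon, 7.17% in the WT small intestine and 0.718% in each of the KO comparisons, with 4% and 2.99% in the lower direction in WT. The median log2 fold change of the 6 members was -0.84 in the WT colon, -1.62 in the WT small intestine, -1.51 in the KO colon and -1.49 in the KO small intestine. Over all genes tested it was -0.03, -0.13, -0.07 and -0.05. The colon and small intestine libraries come partly from the same animals: 15 of the 22 mice gave both.

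Mbp was at 189, 176, 234 and 342 CPM in WT PBS colon and at 28.4, 34.4, 19.6, 104 and 73.9 CPM in WT LPS colon. No library overlapped, yet the log2 fold change of -2.18 ± 0.71 missed the threshold (adjusted p 0.0527). In the WT small intestine Mbp ran from 182 to 792 CPM (median 272, n = 6) after PBS and was at 35.7, 49.0, 105 and 39.6 CPM after LPS. This difference passed, at -2.86 ± 0.76 (adjusted p 0.0169). Without mouse 3 the value in the small intestine was -2.67 with an adjusted p of 0.0575, and without the LPS library of mouse 8 it missed the threshold as well, with values from -3.33 to -2.58 over all fits with 1 library left out. In the colon the value passed with only the compared groups (-2.10, adjusted p 0.0466), by DESeq2 (0.0146) and without the LPS library of mouse 5 (-2.59, adjusted p 0.0335) and was -1.95 without mouse 3 (adjusted p 0.115).

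In the KO colon Mbp was at 173, 239.7, 803, 75.1 and 129.8 CPM after PBS and at 119, 30.7, 35.1 and 60.0 CPM after LPS, and in the KO small intestine at 529, 229, 383 and 835 CPM after PBS and at 548, 87.7, 39.4, 32.4 and 71.7 CPM after LPS. Libraries overlapped in both regions, through mouse 11 on the LPS side in the small intestine. The values were -2.21 ± 0.75 (adjusted p 0.194) and -1.66 ± 0.70 (adjusted p 0.321). DESeq2 called Mbp in the KO colon (adjusted p 0.0311) and not in the KO small intestine (0.18).

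Pmp22 was at 728, 757, 828 and 701 CPM in WT PBS colon and at 251, 264, 127, 502 and 142 CPM in WT LPS colon. All LPS libraries were lower, with a log2 fold change of -1.55 ± 0.36 (adjusted p 0.0074), and without mouse 3 it was -1.37 (adjusted p 0.0242). Fitted on only the compared groups it missed the threshold (-1.50, adjusted p 0.0556). In the KO colon, where PBS libraries were at 642, 804, 1121, 611 and 482 CPM and LPS libraries at 428, 325, 219.6 and 355 CPM, the groups again did not overlap, at -1.14 ± 0.37 (adjusted p 0.165). In the WT small intestine Pmp22 ran from 352 to 515 CPM (median 426) after PBS and was at 285, 268, 203 and 190.3 CPM after LPS. These did not overlap either, at -0.85 ± 0.35 (adjusted p 0.147; -0.94 and 0.155 without mouse 3, and -0.78 and 0.0221 with only the compared groups), and the KO small intestine gave -1.26 ± 0.36 (adjusted p 0.0945). DESeq2 called Pmp22 in the KO colon (adjusted p 0.0352) and the KO small intestine (0.0195), and not in the WT small intestine (0.0732).

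Mal, Cnp and Gpm6b did not pass in any of the 4 comparisons in the edgeR fit to all 24 h libraries. Mal was at 52.1, 67.4, 50.9 and 72.3 CPM in WT PBS colon and at 24.4, 32.5, 14.6, 92.8 and 5.07 CPM in WT LPS colon, where mouse 5 stood above all PBS libraries (-0.84, adjusted p 0.585). In the WT small intestine it ran from 49.7 to 266 CPM (median 69.2) after PBS and was at 3.85, 30.3, 15.3 and 13.3 CPM after LPS. The groups did not overlap, at -2.87 ± 0.94 (adjusted p 0.056), and Mal passed there with only the compared groups (0.0152), with the mouse numbers as a covariate (0.0397) and by DESeq2 (0.0039). It missed the threshold without mouse 3 (0.155) and within the mice numbered 11 and above (0.0655). It also missed it in all 10 fits with 1 library left out (0.0588 to 0.167). Cnp in the WT small intestine ran from 191 to 1107 CPM (median 255) after PBS and was at 141, 115, 138 and 98.2 CPM after LPS. Its value was -1.85 ± 0.76 (adjusted p 0.142), which passed with only the compared groups (0.0365) and by DESeq2 (0.0462), against -0.20 ± 0.74 (adjusted p 0.9) in the WT colon. In the WT small intestine Cnp missed the threshold without mouse 3 (0.224) and in all 10 fits with 1 library left out. Gpm6b stood at -0.84 (adjusted p 0.467) in the WT colon and at -1.39 (0.228) in the WT small intestine, and in the latter its highest LPS library, at 483 CPM, was just below the lowest PBS library, at 489 CPM. In KO these 3 genes lay between -1.32 and -2.31, with adjusted p of 0.268 to 0.524.

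**Figure D4:**
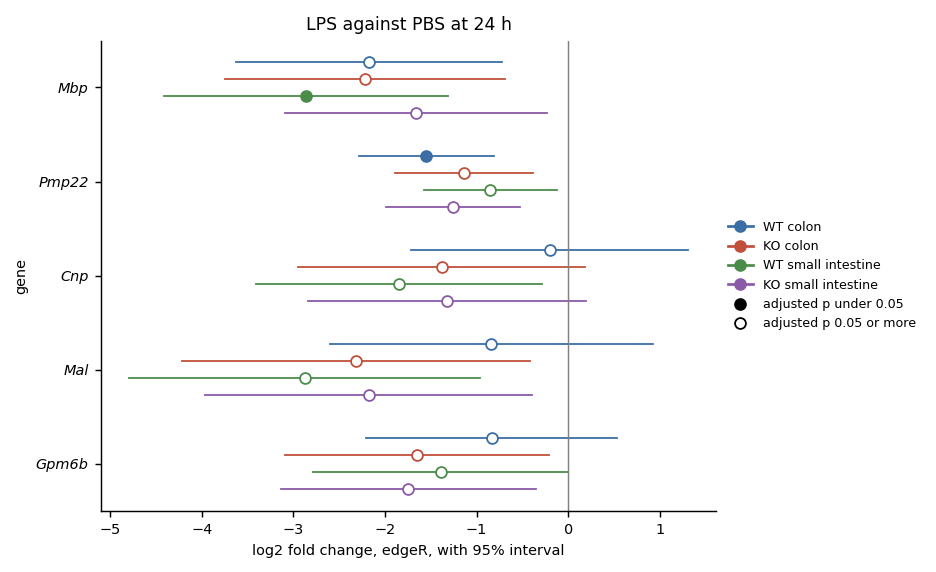
Log2 fold change, LPS over PBS at 24 h, of the 5 members other than Mag in each genotype and region, with 95% intervals and filled points where the adjusted p was under 0.05. All points are below 0, and only Pmp22 in the WT colon and Mbp in the WT small intestine are filled.

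Single libraries weighed on these values. Without the library of mouse 11 in the KO LPS small intestine, whose glial reference was the highest of its group (8.59 against 5.23 to 6.39), all 5 members other than Mag passed: Mbp at -3.04 (adjusted p 0.0116), Gpm6b at -2.94 (0.0125), Pmp22 at -1.58 (0.0134), Mal at -3.92 (0.0145) and Cnp at -2.64 (0.0426). That was 1 of the 9 fits with a single library left out, and no member passed in the other 8. The share of all genes that passed in the fit without mouse 11 is not given here. Whether these passes are particular to the members can therefore not be told. Without the PBS library of mouse 7, whose glial reference of 9.20 was the highest of its own group, Mbp was at -1.24 (0.682), Gpm6b at -1.23 (0.662), Pmp22 at -0.70 (0.548), Mal at -0.98 (0.871) and Cnp at -0.07 (1.0). The mice fall into numbers up to 10 and from 11 on, and WT PBS colon has none of the former. Within the mice numbered 11 and above, Mbp gave -2.88 (adjusted p 0.0335) in the WT colon, -2.21 (0.0826) in the WT small intestine, -1.20 (0.475) in the KO colon and -0.67 (0.86) in the KO small intestine. Pmp22 gave -1.52 (0.00144), -0.99 (0.0191), -0.87 (0.12) and -0.44 (0.566) in the same order. What the numbering stands for is not given in the sources used here.

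Against the glial reference, Mbp stood lower after LPS in all 4 comparisons, by -1.10 in the WT colon, -1.43 in the KO colon, -1.25 in the WT small intestine and -1.10 in the KO small intestine, and the libraries of the WT small intestine did not overlap. Mal gave -0.12, -1.19, -1.38 and -1.49 in the same order, without overlap in both KO comparisons. Cnp gave 0.84, -0.53, -0.04 and -0.11, Pmp22 -0.43, -0.63, 0.63 and 0.03, and Gpm6b 0.08, -0.84, 0.27 and -1.10, the last without overlap. Single mice moved several of these: in the WT colon Cnp ran from 0.41 to 1.11, Pmp22 from -0.82 to -0.14 and Gpm6b from -0.16 to 0.50, and in the KO colon Cnp ran from -0.81 to 0.07, Pmp22 from -0.96 to -0.24 and Gpm6b from -1.11 to -0.50. In the WT small intestine Pmp22 ran from 0.37 to 0.96, Gpm6b from 0.14 to 0.34 and Cnp from -0.28 to 0.15. In the KO small intestine Pmp22 ran from -0.19 to 0.33 and Cnp from -0.23 to 0.06. In the WT LPS colon the libraries of mice 3 and 8 had references of 3.46 and 3.58, against 6.91 to 8.08 in the others, and there Mbp minus reference was 0.85 and 2.63, against -2.07 to -1.38 in the others. With single mice left out, the Mbp difference in the WT colon ran from -1.85 (without mouse 8) to -0.67 (without mouse 13). That of Mal ran from -0.55 (without mouse 3) to 0.13 (without mouse 13), and was also above 0 without mouse 16, at 0.03. The reference itself differed by -1.29, -0.49, -1.49 and -1.29, and its genes moved unequally in the WT colon, from -3.02 for Cdh19 to 0.29 for Erbb3. With a reference of Sox10, Erbb3 and Cdh19, Mbp gave -1.28, -1.78, -1.32 and -1.30, and Gpm6b in the KO small intestine -1.30, again without overlap.

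**Figure D5:**
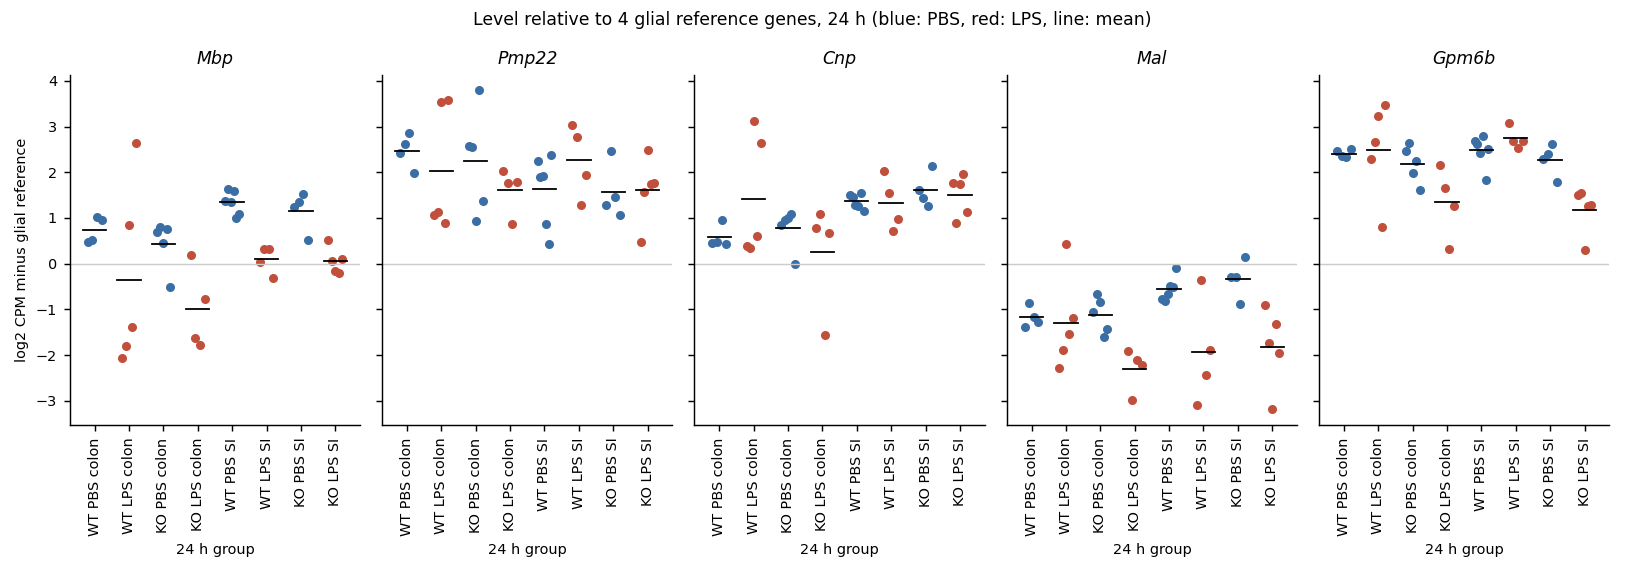
Log2 CPM of 5 members minus the glial reference in each 24 h library, by group. The mean of Mbp is lower in the LPS than in the PBS group of each genotype and region, and so is that of Mal. In the WT colon the Mal difference of -0.12 changes sign without mouse 13 or 16. Libraries do not overlap in the WT small intestine for Mbp, in both KO comparisons for Mal and in the KO small intestine for Gpm6b.

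Markers of other cells moved beside these values. In WT, 2 of 5 fibroblast markers were lower after LPS in each region (659 to 8597 against 13545 to 21763 summed CPM in the colon), and neutrophil markers were higher for 1 of 4 in the colon, and for 3 of 4 in the small intestine (7.30 to 757 against 0 to 1.09 summed CPM). None of the 7 glial markers passed in the WT colon (1032 to 4766 CPM after LPS, 3208 to 5765 CPM after PBS), and 1 was higher in the WT small intestine. Leukocyte markers were higher for 1 of 6 in the WT colon, at 584 to 2802 against 252 to 547 summed CPM without overlap. The summed level of 6 oligodendrocyte markers in the small intestine was 1.19 to 22.2 CPM after LPS against 15.5 to 108 CPM after PBS in WT, and 11.4 to 45.2 against 22.0 to 129 CPM in KO, and neither of the 2 markers tested passed. In KO, 1 of 4 neutrophil markers was higher after LPS in each region, and no glial or fibroblast marker passed. Their part in the members' values was not tested.

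Loss of Gpr37 was tested directly under each treatment and region. None of the 6 members differed between KO and WT in any of the 4 comparisons by edgeR or DESeq2. By edgeR, 0% of all genes passed in PBS colon, 0.429% in LPS colon, 0% in PBS small intestine and 0.0134% in LPS small intestine, with 629, 2448, 256 and 1137 genes at an unadjusted p under 0.05. Mbp gave 0.27 in PBS colon (95% interval -1.16 to 1.70), 0.23 in LPS colon (-1.19 to 1.66), 0.25 in PBS small intestine (-1.12 to 1.61) and 1.45 in LPS small intestine (-0.04 to 2.93, adjusted p 0.67). Cnp in the LPS small intestine had libraries that did not overlap, at 1311, 155, 147, 145 and 148 CPM in KO and at most 141 CPM in WT (1.63, adjusted p 0.62). Without the library of mouse 11, at 1311 CPM, Cnp gave 0.28 and Mbp 0.02 there, with an adjusted p of 1.0 for both. Per glial reference, Gpm6b was lower in KO than in WT in the LPS small intestine, by -1.57 without overlap, a value without a test. Without mouse 3 no member passed in any of the 4 comparisons. The difference of the LPS response between genotypes was -0.04 for Mbp in the colon (-2.06 to 1.98) and 1.20 in the small intestine (-0.81 to 3.21; -0.23 without the library of mouse 11), and 0% of all genes passed there (2009 and 578 at an unadjusted p under 0.05). No member passed between colon and small intestine at 24 h by DESeq2 or in the edgeR fit to all 24 h libraries, where 0.141% of all genes did in WT PBS, 0.262% in WT LPS, 0.0805% in KO PBS and 0.0738% in KO LPS (1001, 2168, 993 and 1494 at an unadjusted p under 0.05). Pmp22 in WT PBS passed, higher in the colon, with only the compared groups (0.82, adjusted p 0.0173) and within the mice numbered 11 and above (0.92, adjusted p 0.0181). Per glial reference, Cnp (-0.79) and Mal (-0.62) in WT PBS and Cnp (-0.84) in KO PBS were lower in the colon without overlap. These are values without a test, and the other members overlapped.

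Mag, the adhesion protein next to the axon, was barely detected. It had no count in 27 of the 75 libraries, 1 to 3 counts in 7, and at most 99 in any. Of the untreated groups, only the submucosal small intestine had counts in all 6 libraries, at 2.54, 4.51, 23.0, 5.93, 13.2 and 7.79 CPM, and its 260 counts there compare with 95 in the 6 libraries of the myenteric small intestine. The test gave 1.56 ± 1.00 (adjusted p 0.218), so Mag did not share the direction of the other 5 members, whose values were all negative, but its own difference was within the spread. In the colon it gave 2.01 (adjusted p 0.224), and 4.65 (0.0273) without myenteric colon replicate 3, which held 17 of the 18 counts of its group. Between the regions of the myenteric plexus it gave -2.69 (0.228), and -5.33 (0.0491) without the same library. The 2 h group sums were 112 counts after PBS and 2 after LPS in the small intestine, and 1 and 6 in the colon. Mag was below the filter there and was not tested. At 24 h the group sums ran from 7 counts (WT PBS colon) to 155 (WT LPS small intestine), and no comparison passed. Its group means after PBS and LPS were 0.199 and 5.56 CPM in the WT colon, 1.45 and 5.51 in the WT small intestine, 1.34 and 0.483 in the KO colon and 0.280 and 4.77 in the KO small intestine. A count of 0 allows up to 3 counts, which is 0.0933 to 1.46 CPM over these libraries.

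Defining genes of myelinating cells ranged from 0 to levels like those of the lower members. The highest group mean of Prx, of the Schwann cell, was 8.61 CPM and that of Ncmap 2.18 CPM, and Pmp2 was at 0 in 72 of 75 libraries. Of oligodendrocyte genes, Opalin was at 0 in 73 libraries, Mobp in 68, Ermn in 67 and Olig2 in 62, and Mog reached a group mean of 6.54 CPM. Drp2, of the Schwann cell surface, and Egr2, the regulator of peripheral myelination, reached group means of 46.2 and 119 CPM, and Myrf, the regulator of central myelin genes, one of 80.6 CPM.

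Another 42 genes of myelin, its lipids and its regulators were read beside the members, and 32 of them were tested in the untreated libraries. In the submucosal small intestine 18 were lower and 2 higher than in the myenteric plexus (median log2 fold change -1.68, against 0.06 over all genes), and in the colon 12 were lower and 4 higher (median -1.13, against -0.01). Of all genes, 21.2% were lower and 22.3% higher in the small intestine and 11.1% and 10.7% in the colon. Pou3f1, an early Schwann cell regulator, fell by 2.29 in the colon and by 3.71 in the small intestine, Sox2, an inhibitor of myelination, by 2.40 in the colon, and Drp2 by 3.63 in the small intestine. Myrf was at 2.01 CPM in the myenteric and listed at 0 in all 5 libraries of the submucosal colon. Id2, an inhibitor of differentiation, was higher in both regions, at 2.34 in the colon and at 1.01 in the small intestine. Gjb1 (connexin 32, also a gene of epithelium) rose in the small intestine, from 0.303 to 31.1 CPM, and Fa2h and Pllp in the colon, from 0.337 to 21.9 CPM and from 6.12 to 35.3 CPM. The submucosal groups were also the ones with more epithelial markers.

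Between regions, Id4 and Id2 were lower in the myenteric colon than in the small intestine (log2 fold change -2.68 and -1.25) and were the 2 of 32 that passed, where 1.53% of all genes were lower. In the submucosal plexus 5 were higher in the colon and 1 lower (3.82% and 1.36% of all genes), among them Fa2h (21.9 against 0.120 CPM) and Drp2 (7.79 against 1.70 CPM), with Myrf at 0 in the colon against 7.07 CPM.

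After LPS, 29 genes of that list were tested at 2 h and 33 at 24 h. At 2 h the colon had none that passed, and the small intestine 2, both higher (1.08% of all genes): Egr2 rose from 0.942 ± 1.32 CPM to 119 ± 55.9 CPM (SD, n = 4; adjusted p 0.0182), and Jun, an inhibitor of myelin genes and an early response gene, by 1.70 on the log2 scale (adjusted p 0.00299). At 24 h in the WT colon 4 were lower (4% of all genes), among them Cmtm5, which fell by 3.37 on the log2 scale (adjusted p 0.0107), and Tspan2, a tetraspanin of myelin, by 2.91 (adjusted p 0.00408). In the WT small intestine 2 were lower (2.99% of all genes): Cmtm5 fell by 2.93 (adjusted p 0.0288) and the regulator Nkx6-2 by 1.30 (adjusted p 0.00329). None passed in the KO comparisons, and the genotypes' difference in the response passed for none.

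The genes whose levels moved most like a member were found from the correlation of deviations from the group mean over the 75 libraries, among 12759 symbols. Among the 3 nearest to Mbp was Gpm6b (r = 0.81), and among the 3 nearest to Gpm6b were Sparc (0.89) and Plekhb1 (0.87). Pmp22 went with Matn2 (0.84), Anxa5 (0.82) and Itih5 (0.79), and Cnp with Mmp17 (0.87), Anxa5 (0.85) and Matn2 (0.85). Mal went with Kcna1 (0.87), Prnp (0.86) and Ank3 (0.85), and Mag was not ranked because it missed the filter at 2 h. Between members, r ran from 0.52 (Mbp and Pmp22) to 0.81 (Mbp and Gpm6b), while with Gfap, the astrocyte-type filament that some enteric glia carry, the 5 members gave 0.01 to 0.19. With other glial genes they gave 0.58 to 0.84 (Sox10), 0.41 to 0.80 (S100b), 0.53 to 0.74 (Erbb3) and 0.56 to 0.80 (Cdh19). The points share their libraries, so depth and the share of glia in a library enter every value, and the correlations are given as a description.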

How the data were processed

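Bulk RNA of enteric glia was measured in 75 libraries. The deposited values are raw read counts per gene symbol in 2 tables made by the authors, with Trim Galore 0.4.4, STAR 2.5.3, DESeq2 and the build GRCm38 named in the submitters' processing notes; the counting program, its annotation and its use of strand are not given in the sources used here. The members and all gene lists were chosen with earlier results of these data known, and all 6 members were named in every comparison.

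Each experiment was fitted on its own in R 4.3.3 with edgeR 4.0.16 (filterByExpr, TMM scaling, quasi-likelihood test, Benjamini-Hochberg adjustment over all genes tested, threshold 0.05), over 24 comparisons in all. The genes tested numbered 14090 in the untreated, 13107 in the 2 h and 14903 in the 24 h libraries. The fit was tested on simulated counts. Of the list of 42 myelin-related genes, those with the largest change among the called ones were named, up to 3 per direction, and Tspan2 was added after its values were seen. Some results of that list are not reported here. Log2 CPM used a prior count of 2, and lengths are the union of exons in GENCODE vM21 (GRCm38). A count of 0 allows up to 3 counts, and this floor covers counting error only, since the reads carry no molecular identifiers as far as the sources used here tell. No replicates of a group were identical.

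At 24 h the mouse pairs the colon and small intestine libraries: deviations from the group means correlated at 0.121 on average in 15 pairs of the same mouse and at -0.00157 between other pairs. Alternatives were DESeq2 1.42.0, no filter, RLE size factors, sex as a covariate, only the compared groups, the sex and number of the descriptions, or the mouse, as a block, the 24 h mice split by number (known from an earlier analysis), each replicate left out, and mouse 3 left out, which was added after seeing the data.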

Additional observations from a re-analysis of the deposited data

Results flagged for a closer look

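Of the 96 groups of values of the 6 members over the 16 groups, 21 held a library whose gap to its neighbour was large for the range of its group (Dixon's test at 95%), in 16 libraries. For normally distributed values chance gives such a gap in about 1 of 20 groups, and the groups of Mag are mostly near 0 counts. Values are CPM.

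In the KO LPS small intestine the library of mouse 11 was high for 4 members: Mbp was at 548 against 32.4 to 87.7 in the other libraries, Cnp at 1311 against 145 to 155, Mal at 204 against 4.65 to 25.2 and Gpm6b at 1084 against 53.7 to 244. In the KO PBS colon the library of mouse 1 was high for 3 members: Mbp was at 803 against 75.1 to 239.7, Cnp at 1172 against 93.6 to 266 and Mal at 332 against 14.3 to 86.7. Cnp was at 410.0 in the WT LPS colon library of mouse 5 against 74.7 to 158.

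In the untreated libraries, Pmp22 was at 1248 in submucosal colon replicate 2 against 334 to 591, Gpm6b at 3046 in myenteric colon replicate 4 against 1631 to 1981, and Gpm6b at 324 in submucosal small intestine replicate 2 against 87.4 to 170.4. Mbp was low in submucosal small intestine replicate 4, at 62.6 against 111 to 133.

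Mag stood apart in 9 groups, mostly on few counts. It was at 1.86 in myenteric colon replicate 3 (0 to 0.302 in the others), at 0.340 in 2 h PBS colon replicate 2 (0 in the others), at 0 in 2 h PBS small intestine replicate 3 (7.43 to 7.80) and at 2.05 in 2 h LPS colon replicate 3 (0 to 0.200). At 24 h it was at 22.4 in the WT LPS colon library of mouse 3 (0 to 3.80), at 1.93 in the KO LPS colon library of mouse 11 (0), at 15.7 in the KO LPS small intestine library of mouse 6 (0.840 to 3.22), at 0.794 in the WT PBS colon library of mouse 19 (0) and at 1.09 in the KO PBS small intestine library of mouse 12 (0 to 0.0311).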

How the results depend on the processing

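Of the 11 values of members that passed the test, 9 passed in every setting tried. Mbp after LPS in the WT small intestine at 24 h passed in 8 of 10 fits with 1 library left out (highest adjusted p 0.0682, edgeR's quasi-likelihood test) and in 6 of 8 other settings, and Pmp22 in the WT colon passed in 9 of 9 and in 7 of 8. Cnp after LPS in the KO small intestine changed sign, to 0.40, within the mice numbered 11 and above. The cause of these shifts was not tested.

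The number of members passing in the myenteric region comparison was 0, and 1 with the replicate block and 1 by DESeq2. For the difference of the plexus effect between regions it was 0, and 1 with the replicate block and 4 by DESeq2. For LPS in the WT small intestine it was 1, and 2 with the mouse numbers as a covariate, 0 without mouse 3, 4 with only the compared groups and 3 by DESeq2. For LPS in the WT colon it was 1, and 2 within mice numbered 11 and above and 2 by DESeq2. For LPS in KO it was 0, and by DESeq2 it was 2 for the colon and 1 for the small intestine. For the region in WT PBS at 24 h it was 0, and 1 within mice numbered 11 and above and 1 with only the compared groups.

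With 1 library left out, the count ran from 2 to 4 for the plexus in the colon, 0 to 1 for the region in the myenteric and 2 to 3 in the submucosal plexus, 0 to 2 for the plexus by region difference, and at 24 h after LPS from 1 to 2 in the WT colon, 0 to 1 in the WT small intestine and 0 to 5 in the KO small intestine.

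Libraries with the same number in the untreated and 2 h labels did not deviate together in every pair (lowest correlation -0.0965 and -0.0483), with means of 0.0928 and 0.0602 against -0.0172 and -0.0195 between other pairs. What the number stands for is not given in the sources used here. The block by mouse at 24 h changed no call. Of 105 member values that passed in no setting, 58 changed sign in at least 1. Mag had no count in 27 of 75 libraries, each of which allows up to 3 counts.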
